A study of Mus musculus with 6 samples.

Results

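The 10 genes described here carry a long-chain fatty acid from outside the cell to the last steps of its breakdown in mitochondria: Cd36, Fabp3, Cpt1a, Cpt1b, Cpt1c, Cpt2, Slc25a20, Hadha, Hadhb and Hadh. They were taken by symbol from the 17558 genes of the deposited expression table, and all 10 were found and passed the filter on low counts. RNA-seq was run on C2C12 cells, a permanent mouse myoblast line whose cells form myotubes when serum is lowered. All 6 libraries came from cells that stably carried a short hairpin RNA and were harvested after 48 h in differentiation medium with 2% horse serum and an insulin, transferrin and selenium supplement. The shScr group (genotype given as WT) carried a scrambled hairpin, the ShPkm1 group a hairpin against the Pkm1 isoform of pyruvate kinase, and the ShPkm2 group a hairpin against the Pkm2 isoform. Each group had 2 libraries. The labels do not say whether these were separate cultures or clones, so p-values measure only the spread between these libraries. The design asks what either isoform does during myoblast differentiation.

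Fatty acids cross the plasma membrane with the help of the scavenger receptor CD36, and the binding protein FABP3, the heart and skeletal muscle form, carries them through the cytosol. Once activated to acyl-CoA, they are joined to carnitine at the outer mitochondrial membrane by carnitine palmitoyltransferase 1, which malonyl-CoA inhibits. The gene Cpt1a encodes the form known from liver, Cpt1b the form of mature muscle and Cpt1c a form best known from brain with little enzyme activity. The carrier SLC25A20 exchanges acylcarnitine for carnitine across the inner membrane, and CPT2 remakes acyl-CoA in the matrix. The trifunctional protein, built from the alpha subunit HADHA and the beta subunit HADHB, then runs the last steps of each round of beta-oxidation on long chains, and the soluble enzyme HADH does one of those steps on shorter chains.

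Stretches before the start sites of 3 places are shown, because Cpt1a rose, Fabp3 fell, and Hadha and Hadhb start head to head. RefSeq promoters of build GRCm38.p6 were matched for 9 of the 10 genes; Cpt1b was not matched. The windows searched were the 250 bases before the start the RefSeq table uses, on both strands. The stretches printed for Cpt1a and for Hadha and Hadhb leave out annotated untranslated regions. The Fabp3 stretch is a short one around a motif match and was not checked for them. All 3 are written 5′ to 3′ on the plus strand. That start lies inside the full gene span for Cpt1a (975 bases, at 3323301), Cpt1c (29 bases) and Cd36 (53063 bases), whose spans also hold models that start farther upstream. The Cpt1a stretch is chr19:3323051-3323284, with capitals for TGACCT (the nuclear receptor element AGGTCA on the minus strand) and for the E-box CAGCTG. The stretch between Hadha and Hadhb is chr5:30155163-30155247, with capitals for the GC box GGGCGG. The Fabp3 stretch is chr4:130308681-130308710, with capitals for the E-box form CANNTG.
Cpt1a: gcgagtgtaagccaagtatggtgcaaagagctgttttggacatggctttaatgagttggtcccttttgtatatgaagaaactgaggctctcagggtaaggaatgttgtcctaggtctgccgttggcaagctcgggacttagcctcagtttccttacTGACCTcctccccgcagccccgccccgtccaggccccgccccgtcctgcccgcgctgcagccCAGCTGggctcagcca
Hadha and Hadhb: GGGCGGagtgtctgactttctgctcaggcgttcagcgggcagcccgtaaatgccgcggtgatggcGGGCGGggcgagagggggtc
Fabp3: ggccactttcatCATGTGatgcgagggcta

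CAGCTG was present in 1 of the 9 windows (Cpt1a) and in 13% of all 32851 RefSeq promoter windows of this length. AGGTCA was present before Cd36, Cpt1c and Cpt1a and in 14% of all windows. CANNTG, which includes CAGCTG, was present in 5 of the 9 windows and in 66.2% of all. GGGCGG was present in 8 of the 9, all but Fabp3, and in 32.7% of all. The windows of Hadha and Hadhb share 228 bases, so they are not separate. The only Hadha match, 188 to 183 bases before its start, is the same site as the Hadhb match 90 to 85 bases before its start. That site is therefore counted for both genes. The direct repeat of AGGTCA with 1 base between (0.0335% of all windows), the extended element TCAAGGTCA (0.387%, overlapping AGGTCA) and the MEF2 site (0.508%) were in none of the 9. Hadha and Hadhb start on opposite strands of chromosome 5 at 30154980 and 30155253, with 272 bases between them. A match of letters is a description of the sequence only.

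The libraries held 18216896 to 19796036 estimated counts each. All 15 skeletal muscle markers on the list were tested, and their summed level in TPM (the unit per transcript length) was 24690 to 31839 in shScr, 12367 to 13292 in ShPkm1 and 1073 to 1147 in ShPkm2. The myogenic factor gene Myog fell by 0.94 on the log2 scale in ShPkm1 and fell by 5.35 in ShPkm2, and the muscle creatine kinase gene Ckm had -2.81 and -8.16. Of the 15 markers 14 fell in each comparison; the exception was the myogenic factor gene Myf5, named after its values were seen, with 0.25 in ShPkm1 (adjusted p = 0.0588) and a rise of 1.74 in ShPkm2 (adjusted p = 9.39e-09). The Pkm1 isoform stood at 545.8 and 588.8 TPM in shScr, 242.7 and 218.2 in ShPkm1, and 254.1 and 254.2 in ShPkm2. The Pkm2 isoform stood at 1073 and 1517 TPM in shScr, 1278 and 1379 in ShPkm1, and 2700 and 2630 in ShPkm2. The Pkm2 isoform was thus not lower in the libraries labelled ShPkm2, which are called by their label throughout, and each direction given for them is that of the label. In bulk RNA, fewer cells of a type and less RNA per cell cannot be told apart.

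In the libraries labelled ShPkm1, 1 of the 10 genes rose (Cpt1a) and 5 fell (Cd36, Fabp3, Slc25a20, Hadhb and Hadh) against shScr at an adjusted p under 0.05 in the edgeR quasi-likelihood test. Of all 12643 genes tested, 63.1% were called in that comparison: 31.8% of all tested were higher and 31.4% lower. Of the 10 genes, 1 rose (Cpt1a) in the libraries labelled ShPkm2 and 5 fell (Cd36, Fabp3, Slc25a20, Hadha and Hadhb), where 68.0% of all genes were called, 33.9% higher and 34.2% lower. The share of the 10 genes called was therefore near the background in both comparisons. Their median log2 fold change was -0.27 in ShPkm1 and -0.35 in ShPkm2, beside 0.00 and 0.01 over all genes. Scaling to library totals alone moved the median of all genes up by 0.19 and 0.32 and gave 3 higher and 4 lower members in ShPkm1, and 3 higher and 5 lower in ShPkm2. It also moved the share of higher genes among all calls from 50.3% to 65.8% in ShPkm1 and from 49.8% to 69.3% in ShPkm2. The comparisons with shScr share their control libraries.

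**Figure D1:**
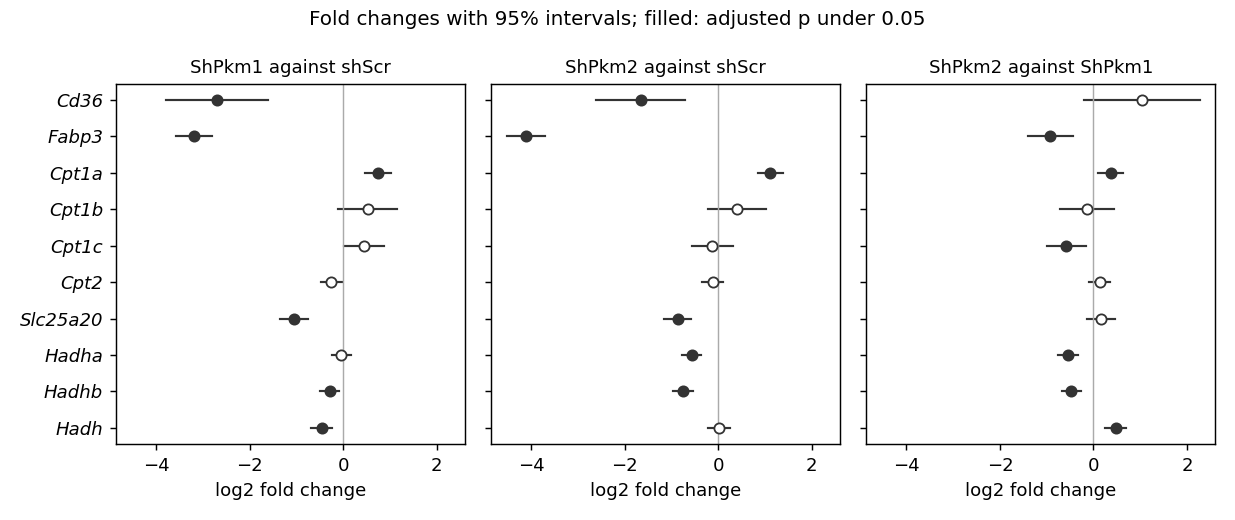
Log2 fold changes of the 10 genes (points, horizontal axis) with 95% intervals from the edgeR fit (bars), 1 panel per comparison; filled points have an adjusted p under 0.05. Fabp3 lies farthest left in both comparisons with shScr, at -3.19 and -4.11, and Cpt1a is the only filled point to the right of 0 in them.

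Fabp3 showed the largest fall of the 10 genes in both comparisons. In CPM, the counts scaled to library size with TMM factors and used here for each gene between groups, it stood at 64.1 and 44.3 in the shScr libraries, 5.70 and 6.12 in ShPkm1, and 2.97 and 3.29 in ShPkm2. No library of one group overlapped another group, and both shScr libraries lay far above the other 4. The fall was 9.15-fold in ShPkm1 (log2 -3.19, SE 0.175, adjusted p = 9.87e-09) and 17.3-fold in ShPkm2 (log2 -4.11, SE 0.189, adjusted p = 6.65e-10). Fabp3 was also lower in ShPkm2 than in ShPkm1, by 0.92 on the log2 scale (SE 0.222, adjusted p = 0.00354). It moved in the same order as the summed muscle markers given above, whose part in the result was not tested. Fabp3 lies at chr4:130308738-130315463, and 81 of the 823 exon bases of its GENCODE model overlap Zcchc17 on the other strand. Antisense overlaps also touch 366 of 5605 exon bases of Cpt1c and 75 of 8730 of Hadha, and whether counting used strand is not given in the sources used here.

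Fabp5, the epidermal fatty acid binding protein, was named by the rule for the fatty acid genes and took the opposite course. Copies of Fabp5 elsewhere in the mouse genome could share its reads. It stood at 24.7 and 27.0 TPM in shScr, 45.7 and 46.4 in ShPkm1, and 222 and 230 in ShPkm2, with no overlap. It rose by 0.45 on the log2 scale in ShPkm1 (SE 0.112, adjusted p = 0.00361) and by 2.68 in ShPkm2 (SE 0.109, adjusted p = 2.06e-10). The ratio of Fabp3 to Fabp5 in TPM was 5.83 and 4.23 in shScr, 0.401 and 0.406 in ShPkm1, and 0.0455 and 0.0458 in ShPkm2. Fabp3 made up 31.8% and 24.6% of the summed TPM of the 10 genes in shScr, 4.53% and 4.7% in ShPkm1, and 2.62% and 2.79% in ShPkm2.

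Cd36 (chr5:17781690-17888959) was low in every library. Its estimated counts were 72 and 35 in shScr, 14 and 5 in ShPkm1, and 26 and 17 in ShPkm2. On the CPM scale these were 4.56 and 1.98, 0.745 and 0.253, and 1.22 and 0.811, so both shScr libraries lay above the other 4. Cd36 fell by 2.70 on the log2 scale in ShPkm1 (SE 0.504, adjusted p = 4.43e-04) and by 1.66 in ShPkm2 (SE 0.441, adjusted p = 0.00444). The fall in ShPkm2 rested partly on the first shScr library: without it the log2 fold change was -0.95 (adjusted p = 0.0355). The fall in ShPkm1 was -3.63 without the first ShPkm1 library, -2.11 without the second and -1.99 without the first shScr library, and was called each time (adjusted p = 0.00293, 0.0146 and 2.07e-04). Cd36 in ShPkm2 was 1.02 ± 0.292 CPM (SD, n = 2) against 0.499 ± 0.348 CPM in ShPkm1, a log2 difference of 1.03 with a 95% interval of -0.20 to 2.27 (adjusted p = 0.147). It was called when only those groups were fitted (1.04, adjusted p = 0.0235). The table splits Cd36 into 9 transcripts, none of which had a count in every library.

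Cd36 is also a marker of adipocytes, endothelial cells and macrophages, so the lists of those cells are given beside it. Of 8 adipocyte markers 7 were in the table and 1, Pparg, was tested; Adipoq, Lep, Plin1, Retn and Cfd had at most 3 counts in any library. The summed adipocyte markers ran from 1.88 to 2.08 TPM in shScr, 4.25 to 4.41 in ShPkm1 and 3.47 to 3.67 in ShPkm2. Most of that sum was Pparg, at 1.55 and 1.84 TPM in shScr, 3.97 and 3.93 in ShPkm1, and 3.03 and 2.41 in ShPkm2. All 8 endothelial markers were in the table and 1 was tested; their sum ran from 1.16 to 1.62 TPM in shScr, 0.590 to 0.770 in ShPkm1 and 0.230 to 0.410 in ShPkm2, with Tek, Emcn and Esam at 3 counts or fewer. Of 8 macrophage markers 6 were in the table and 4 were tested, with Cx3cr1 at 3 counts or fewer; their sum was 3.33 to 5.53, 13.5 to 14.1 and 14.5 to 15.3 TPM. Most of the macrophage sum was Cd14, at 2.51 and 4.59 TPM in shScr, 11.2 and 11.2 in ShPkm1, and 14.3 and 15.1 in ShPkm2. Other macrophage markers took other courses: Itgam had 30 and 22 counts in shScr, 7 and 1 in ShPkm1 and 0 and 0 in ShPkm2, and Csf1r had 9 and 11, 32 and 32, and 2 and 5. The adipocyte sum and Cd14 were lowest in shScr, where Cd36 was highest, while the endothelial sum and Itgam were highest there. In shScr that sum was mostly Vwf and Cldn5, and Pecam1 (0 and 1 counts in shScr, 0 and 2 in ShPkm1, 5 and 8 in ShPkm2) and Cdh5 (0 and 2, 13 and 9, and 0 and 1) took other courses. The part of such cells in the result was not tested.

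**Figure D2:**
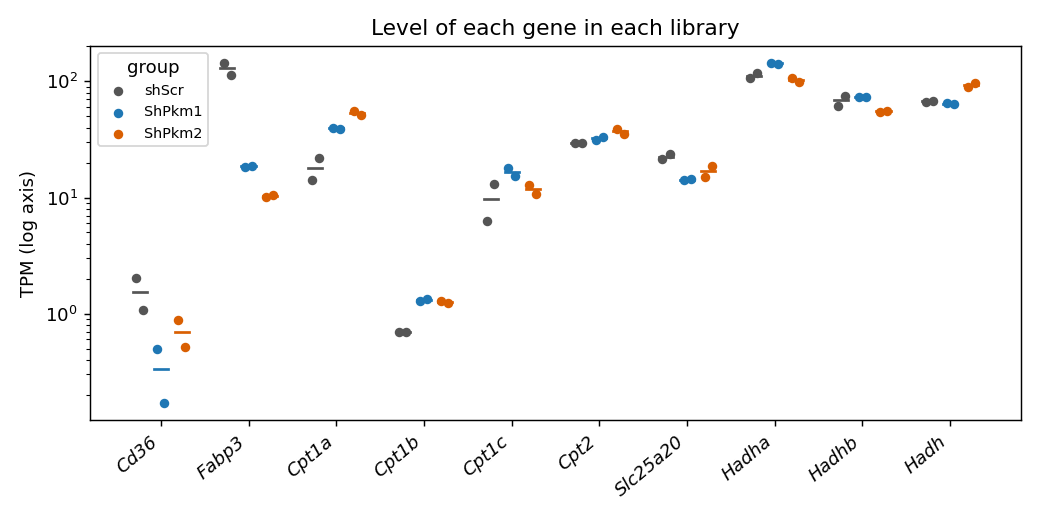
Level of each gene in TPM (log axis) in each of the 6 libraries (points), coloured by group, with the group mean as a bar. Fabp3 drops from 129 TPM in shScr to 18.6 and 10.3, Cpt1a climbs from 18.1 to 39.3 and 53.1, and Cd36 and Cpt1b lie near or below 2 TPM in every group.

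Among the carnitine palmitoyltransferase 1 genes, Cpt1a was the one that rose in both comparisons. It stood at 46.9 and 64.0 CPM in shScr, 91.5 and 94.0 in ShPkm1, and 122 and 118 in ShPkm2. The groups did not overlap and followed the order shScr, ShPkm1, ShPkm2. Cpt1a rose 1.67-fold in ShPkm1 (log2 0.74, SE 0.127, adjusted p = 2.25e-04) and 2.16-fold in ShPkm2 (log2 1.11, SE 0.127, adjusted p = 4.61e-06). The direct difference between ShPkm2 and ShPkm1 was 0.37 on the log2 scale (SE 0.124, adjusted p = 0.0227). That call was lost when any 1 of the 4 libraries was left out, with values of 0.34 to 0.39 and adjusted p of 0.0795 to 0.149. The gene lies at chr19:3322326-3385735, and the most abundant of its 5 transcripts in the table took 62.8% to 98.2% of its TPM across libraries, both extremes being ShPkm1 libraries.

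Cpt1b, the muscle form, was among the lowest of the 10 genes in these muscle cells, with 24 and 24 estimated counts in shScr, 37 and 43 in ShPkm1, and 40 and 40 in ShPkm2. In CPM it stood at 1.52 and 1.36, 1.97 and 2.17, and 1.88 and 1.91. Both shScr libraries were lowest. The log2 fold changes of 0.53 in ShPkm1 (95% interval -0.10 to 1.15, adjusted p = 0.127) and 0.40 in ShPkm2 (-0.23 to 1.02, adjusted p = 0.234) did not pass the test. With library totals alone both came to 0.72 and passed (adjusted p = 0.0447 and 0.0395). They also passed with limma, at 0.27 and 0.26 on the log2(FPKM + 1) scale (adjusted p = 0.0132 and 0.0121) and at 0.62 and 0.61 with a pseudocount of 0.1 (adjusted p = 0.0206 and 0.0189). The limma fits used FPKM as deposited, without TMM scaling, so they are not a check separate from library totals. The direct difference was -0.13 (95% interval -0.71 to 0.45). The exons of Cpt1b (chr15:89416405-89425862) share 2744 of 3372 bases with the overlapping gene Gm44502 on the same strand, so its counts are uncertain.

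Cpt1c stood at 12.4 and 22.7 CPM in shScr, 24.9 and 23.3 in ShPkm1, and 16.6 and 15.6 in ShPkm2. The shScr libraries differed most, and their range held both ShPkm2 libraries. Neither comparison with shScr passed (log2 0.45, adjusted p = 0.0619 in ShPkm1; log2 -0.13, 95% interval -0.56 to 0.31, in ShPkm2). Without the first shScr library the ShPkm2 value was -0.49 (adjusted p = 0.00109), and without the second it was 0.38 (adjusted p = 0.0222). Without the second shScr library the ShPkm1 value was 0.96 (adjusted p = 9.57e-08), and without the first it was 0.09. With library totals that value was 0.64 (adjusted p = 0.0212). Cpt1c was lower in ShPkm2 than in ShPkm1 by 0.58 on the log2 scale (SE 0.196, adjusted p = 0.0240), a call lost when any 1 of the 4 libraries was left out (adjusted p of 0.0690 to 0.135) and with library totals (-0.45, adjusted p = 0.0926).

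Per length, the 3 Cpt1 genes summed to 21.2 and 35.9 TPM in shScr, 59.1 and 55.2 in ShPkm1, and 69.4 and 62.8 in ShPkm2. Cpt1a made up 67.1% and 61.1% of that sum in shScr, 67.6% and 70.1% in ShPkm1, and 79.6% and 81% in ShPkm2. Cpt1b made up between 1.85% and 3.25% in any library. The ratio of the Cpt1 sum to Cpt2 was 0.724 and 1.22 in shScr and between 1.66 and 1.88 in the other 4 libraries. Both shScr libraries therefore had the lowest ratios.

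**Figure D3:**
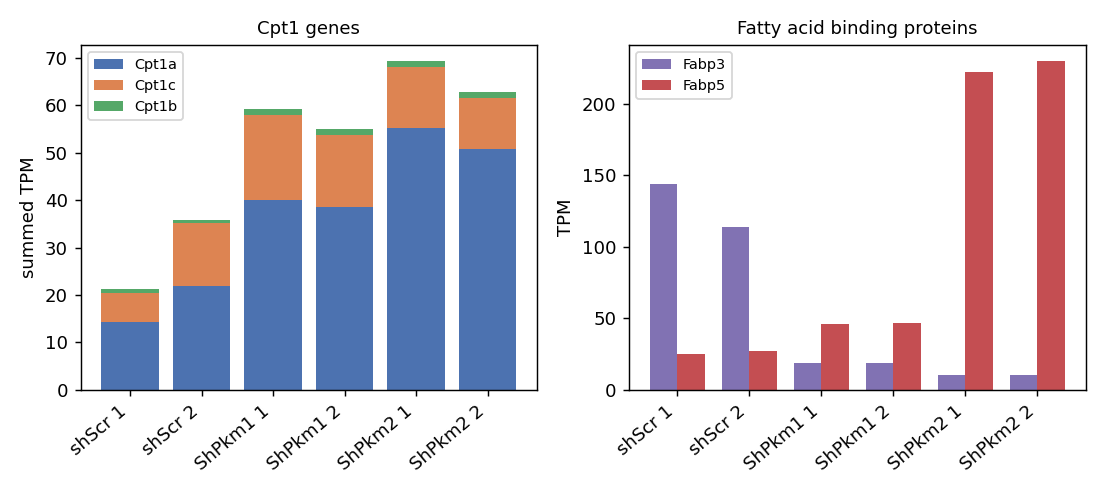
Left, stacked bars of the TPM of Cpt1a, Cpt1c and Cpt1b in each library; right, bars of the TPM of Fabp3 and Fabp5. The Cpt1 sum runs from 21.2 to 69.4 TPM with Cpt1a the largest piece in every library, and Fabp5 exceeds Fabp3 in the 4 libraries labelled ShPkm1 or ShPkm2 but not in shScr.

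The carrier gene Slc25a20 fell in both comparisons, while Cpt2 passed the test in neither. Slc25a20 (chr9:108662136-108684642) stood at 28.5 and 27.9 CPM in shScr, 13.2 and 14.1 in ShPkm1, and 13.3 and 17.4 in ShPkm2. Both shScr libraries were above the other 4, and the other groups overlapped each other. The fall was 2.07-fold in ShPkm1 (log2 -1.05, SE 0.136, adjusted p = 2.13e-05) and 1.83-fold in ShPkm2 (log2 -0.87, SE 0.134, adjusted p = 6.41e-05). With library totals alone the ShPkm2 value was -0.55 and still passed (adjusted p = 0.00272). The direct difference was 0.17 (95% interval -0.13 to 0.47).

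Cpt2 (chr4:107903982-107923589) stood at 52.1 and 46.0 CPM in shScr, 39.0 and 43.5 in ShPkm1, and 46.5 and 43.9 in ShPkm2. The ShPkm2 libraries overlapped shScr, and the ShPkm1 libraries lay just below it. The log2 fold change was -0.25 in ShPkm1 (95% interval -0.48 to -0.02, adjusted p = 0.0580) and -0.12 in ShPkm2 (-0.35 to 0.11, adjusted p = 0.343). The ShPkm1 value passed without the second shScr library (-0.34, adjusted p = 0.00919). With library totals the values were -0.05 in ShPkm1 (adjusted p = 0.681) and 0.21 in ShPkm2 (adjusted p = 0.0932). The direct difference was 0.13 (95% interval -0.10 to 0.36), and 0.26 with library totals (adjusted p = 0.0495).

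Both trifunctional protein genes fell in the libraries labelled ShPkm2, and in the libraries labelled ShPkm1 the alpha subunit gene did not pass the test. Hadha (chr5:30119423-30154980) stood at 311 and 306 CPM in shScr, 293 and 308 in ShPkm1, and 210 and 204 in ShPkm2. The ShPkm1 libraries overlapped shScr and both ShPkm2 libraries lay below. Hadha fell 1.49-fold in ShPkm2 (log2 -0.57, SE 0.0965, adjusted p = 1.43e-04), a value of -0.25 with library totals (adjusted p = 0.0378). In ShPkm1 its log2 fold change was -0.04 (95% interval -0.24 to 0.17, adjusted p = 0.758), and 0.16 with library totals.

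Hadhb (chr5:30155253-30184593), which starts just after the stretch printed above, stood at 94.5 and 102 CPM in shScr, 78.2 and 82.7 in ShPkm1, and 55.7 and 60.4 in ShPkm2. The 3 groups did not overlap and stepped down in that order. It fell 1.70-fold in ShPkm2 (log2 -0.76, SE 0.0987, adjusted p = 1.45e-05), a value of -0.44 with library totals (adjusted p = 0.00256). Its smaller fall in ShPkm1 (log2 -0.29, SE 0.0977, adjusted p = 0.0192) was not called with library totals (-0.10, adjusted p = 0.442). It was also not called without the second shScr library (-0.23, adjusted p = 0.0514) or without either ShPkm1 library (adjusted p = 0.162 without the first and 0.0596 without the second). Between ShPkm2 and ShPkm1, Hadha was lower by 0.54 (SE 0.0963, adjusted p = 3.85e-04) and Hadhb by 0.47 (SE 0.0986, adjusted p = 0.00129). The ratio of Hadha to Hadhb in TPM was 1.71 and 1.56 in shScr, 1.96 and 1.95 in ShPkm1, and 1.97 and 1.76 in ShPkm2. Both shScr libraries were lowest.

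Hadh (chr3:131233419-131272101) followed another course than the trifunctional genes. It stood at 89.7 and 79.9 CPM in shScr, 60.4 and 62.7 in ShPkm1, and 80.6 and 90.6 in ShPkm2. The ShPkm1 libraries lay below the other 4, and the ShPkm2 libraries overlapped shScr. Hadh fell 1.38-fold in ShPkm1 (log2 -0.46, SE 0.104, adjusted p = 0.00175), a value of -0.26 with library totals (adjusted p = 0.0388). Its log2 fold change in ShPkm2 was 0.01 (95% interval -0.21 to 0.24), and it passed with library totals at 0.34 (adjusted p = 0.00893). It was higher in ShPkm2 than in ShPkm1 by 0.48 (SE 0.103, adjusted p = 0.00170).

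In the direct comparison of the libraries labelled ShPkm2 with those labelled ShPkm1, 2 of the 10 genes were called higher (Cpt1a and Hadh) and 4 lower (Fabp3, Cpt1c, Hadha and Hadhb). Of all genes tested 53.0% were called there, 25.7% higher and 27.3% lower, close to the share of the 10. Library totals alone gave 3 higher and 3 lower, moved the median of all genes by 0.13 and moved the share of higher genes among all calls from 48.4% to 61.3%.

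Per length, Fabp3 was the highest of the 10 genes in shScr at 129 ± 21.1 TPM (SD, n = 2), followed by Hadha at 112 ± 8.46, whose range overlapped it. Hadhb (68.6 ± 9.67) and Hadh (67.2 ± 0.396) came next and also overlapped. Cpt2, Slc25a20, Cpt1a and Cpt1c followed at 29.3, 22.5, 18.1 and 9.77 TPM, with Slc25a20 and Cpt1a overlapping. Cd36 (1.54) and Cpt1b (0.695) were lowest. In ShPkm1 the order was Hadha (143), Hadhb (73.0), Hadh (64.1), Cpt1a (39.3), Cpt2 (32.3), Fabp3 (18.6), Cpt1c (16.5), Slc25a20 (14.2), Cpt1b (1.31) and Cd36 (0.335), and no neighbours overlapped. In ShPkm2 it was Hadha (103), Hadh (93.1), Hadhb (55.2), Cpt1a (53.1), Cpt2 (37.1), Slc25a20 (16.7), Cpt1c (11.8), Fabp3 (10.3), Cpt1b (1.25) and Cd36 (0.700), where Hadhb and Cpt1a overlapped. Fabp3 thus had rank 1 in shScr, 6 in ShPkm1 and 8 in ShPkm2, and Cpt1a had ranks 7, 4 and 4. TPM carries no TMM scaling, and Hadha was higher in ShPkm1 than in shScr in TPM and not in CPM. Cpt2 was likewise higher without overlap in TPM, at 29.3 and 29.3 in shScr, 31.4 and 33.2 in ShPkm1, and 39.2 and 35.1 in ShPkm2, while its mean CPM was lower than in shScr in both. Hadh had 67.0 and 67.5 TPM in shScr and 90.2 and 96.0 in ShPkm2, groups that overlapped in CPM.

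Genes with the most similar course over the 6 libraries were found by the distance between centred log2 CPM values. For Cd36 they were Mrln (distance 0.93, the gene of the muscle micropeptide myoregulin), Trdn (0.98, the junctional protein triadin) and Lypd6 (1.07), where the median distance over 10716 genes was 2.91. For Fabp3 they were Gbp6 (0.25), Mafa (0.42) and Ccdc162 (0.46), with a median of 4.34 over 10715 genes. For Cpt1a they were Rnf26 (0.11), Anxa9 (0.12) and Phtf1 (0.15), with a median of 1.38. For Cpt1b they were Srm (0.08, spermidine synthase), Txlng (0.09) and Stn1 (0.12), with a median of 0.95.

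Of 101 further genes of fatty acid use on 7 lists, 86 were tested. In ShPkm1, 22 rose and 39 fell (median log2 fold change -0.25). That is 25.6% higher and 45.3% lower, beside 31.8% and 31.4% of all genes tested. In ShPkm2, 16 rose and 44 fell (median -0.34), or 18.6% and 51.2% beside 33.9% and 34.2%. With library totals alone 27 rose and 23 fell in ShPkm1, or 31.4% and 26.7% beside 40.5% and 21.0% of all genes. In ShPkm2 they gave 28 and 27, or 32.6% and 31.4% beside 48.2% and 21.4%. The list median minus that of all genes was -0.25 in ShPkm1 and -0.35 in ShPkm2 on either scale, which a change of scaling, moving all genes nearly alike, could not alter. Of 19 mitochondrial beta-oxidation enzymes, 1 rose and 11 fell in ShPkm1 (2 and 6 with library totals), and 2 rose and 12 fell in ShPkm2 (4 and 5 with library totals). The dehydrogenase gene Acadl fell by 1.43 on the log2 scale in ShPkm1 (SE 0.110, adjusted p = 2.12e-07), from 335 and 283 CPM to 120 and 109. In ShPkm2 its value was -1.70 (SE 0.111, adjusted p = 1.96e-08), at 97.3 and 92.3 CPM. The direct difference for Acadl was -0.27 (adjusted p = 0.0507). Of 14 tested genes of fatty acid entry and activation, 6 rose and 5 fell in ShPkm1, and 5 rose and 6 fell in ShPkm2. With library totals 6 rose and 4 fell in ShPkm1, and 7 rose and 5 fell in ShPkm2.

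**Figure D4:**
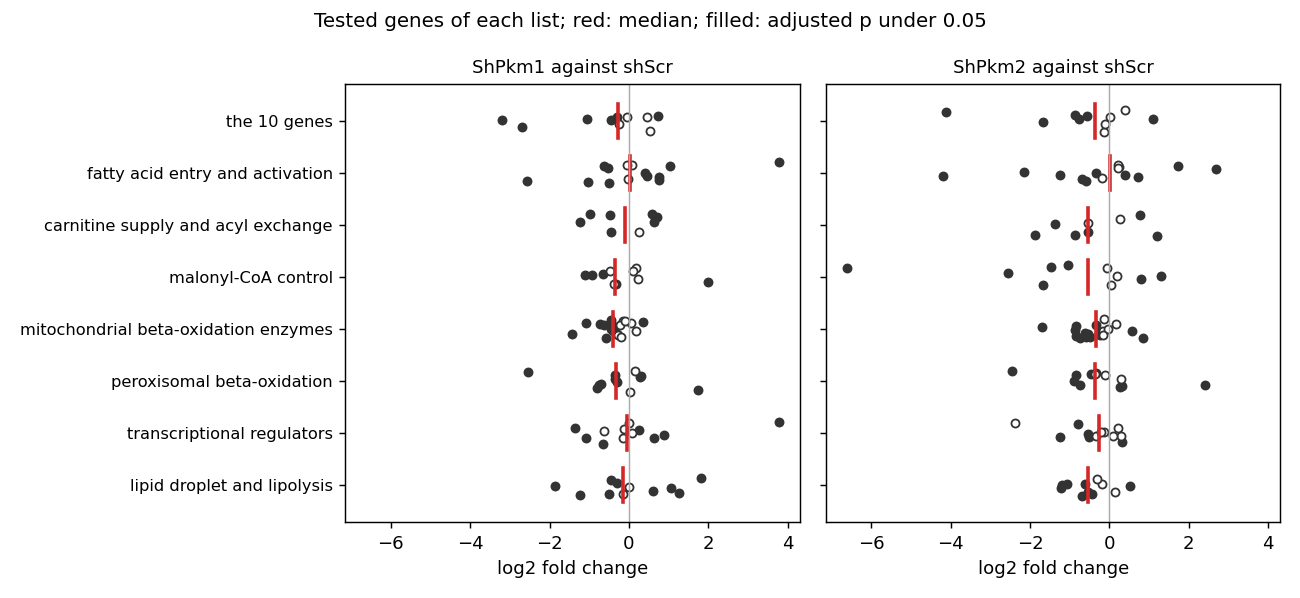
Log2 fold change against shScr (horizontal axis) of every tested gene (points) of the 10 genes and the 7 further lists, in ShPkm1 (left) and ShPkm2 (right); red bars are list medians and filled points have an adjusted p under 0.05. The beta-oxidation enzymes have medians of -0.39 and -0.34 (-0.20 and -0.01 with library totals), and Prkag3 is the point farthest left, at -6.62 in ShPkm2.

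Among genes of fatty acid entry, the lipoprotein receptor gene Vldlr stood at 1.96 and 2.03 CPM in shScr, 30.0 and 25.4 in ShPkm1, and 0.612 and 0.286 in ShPkm2. It rose by 3.79 on the log2 scale in ShPkm1 (adjusted p = 5.77e-09) and fell by 2.14 in ShPkm2 (adjusted p = 1.07e-04), the fall resting on 13 and 6 counts and not called by limma on log2(FPKM + 1) (-0.17, adjusted p = 0.107). The lipoprotein lipase gene Lpl rose by 1.73 in ShPkm2 (adjusted p = 2.13e-06) and had -0.04 in ShPkm1 (adjusted p = 0.860), a value of 0.42 without the first shScr library (adjusted p = 0.0109) and -0.40 without the second (adjusted p = 0.00756). Acsl6, an acyl-CoA synthetase gene, fell in both, with log2 fold changes of -2.57 in ShPkm1 (adjusted p = 3.66e-06) and -4.20 in ShPkm2 (adjusted p = 8.82e-08). The peroxisomal transporter gene Abcd2 rose by 1.73 and 2.40 (adjusted p = 6.06e-06 and 1.14e-07). Plin4, a lipid droplet coat gene, fell by 1.87 in ShPkm1 (adjusted p = 2.06e-04) and had -0.32 in ShPkm2, which passed at -0.61 without the second shScr library (adjusted p = 0.0423).

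Of the genes that set malonyl-CoA, the inhibitor of carnitine palmitoyltransferase 1, Mlycd encodes the decarboxylase that removes it. Mlycd stood at 23.6 and 25.1 TPM in shScr, 13.3 and 16.1 in ShPkm1, and 10.2 and 11.1 in ShPkm2, without overlap. It fell by 1.11 on the log2 scale in ShPkm1 (SE 0.131, adjusted p = 9.01e-06) and by 1.67 in ShPkm2 (SE 0.135, adjusted p = 1.67e-07). The acetyl-CoA carboxylase gene Acaca, which makes it, had 0.18 in both comparisons (adjusted p = 0.121 and 0.114), and passed with library totals at 0.37 and 0.50 (adjusted p = 0.00878 and 9.43e-04). Acacb, the mitochondria-bound carboxylase, rose by 1.99 in ShPkm1 (adjusted p = 6.39e-05) and fell by 1.47 in ShPkm2 (adjusted p = 0.00547), with 20 counts in each shScr library. The ShPkm2 call was lost without the second ShPkm2 library (-1.07, adjusted p = 0.0646).

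The AMP-activated kinase restrains the carboxylases. Its muscle subunit gene Prkag3 stood at 63.3 and 45.3 CPM in shScr, 29.9 and 26.9 in ShPkm1, and 0.424 and 0.668 in ShPkm2. It fell by 6.62 on the log2 scale in ShPkm2 (SE 0.245, adjusted p = 8.40e-11). Another subunit gene, Prkag2, rose by 1.30 there (SE 0.208, adjusted p = 9.40e-05), and the catalytic subunit gene Prkaa2 fell by 2.56 (adjusted p = 6.67e-07). Prkag1, named after its values were seen, encodes the same kind of subunit as Prkag2 and Prkag3 and was the most abundant of the 3 per length (106 and 107 TPM in ShPkm2, where Prkag2 had 7.56 and 7.16). Its value there was 0.05 (95% interval -0.15 to 0.26, adjusted p = 0.632), and 0.38 with library totals (adjusted p = 0.00368). The other catalytic subunit gene, Prkaa1, named after its values were seen, was more abundant per length (45.8 and 43.0 TPM in ShPkm2, where Prkaa2 had 0.510 and 0.520) and rose there by 0.80 (SE 0.0996, adjusted p = 1.05e-05).

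Of 12 tested transcriptional regulators, 4 rose and 3 fell in ShPkm1 (5 and 3 with library totals). In ShPkm2, 1 rose and 4 fell (4 and 2 with library totals). Of all genes, 31.8% rose and 31.4% fell in ShPkm1, and 33.9% and 34.2% in ShPkm2, with TMM scaling. Those that rose with TMM scaling, named after their values were seen, were Klf15, Pparg, Lpin1 and Rxra in ShPkm1 and Nrf1 in ShPkm2. The estrogen-related receptor gene Esrra, known as an activator of oxidative genes, fell by 1.08 in ShPkm1 (SE 0.112, adjusted p = 2.92e-06) and by 1.24 in ShPkm2 (SE 0.112, adjusted p = 4.74e-07). The coactivator gene Ppargc1b fell by 1.35 (adjusted p = 6.88e-06) and 0.78 (adjusted p = 3.91e-04), and the second value was -0.45 with library totals and was not called by limma on log2(FPKM + 1) (-0.32, adjusted p = 0.0700). Ppargc1a had log2 values of -0.64 (adjusted p = 0.0777) and -0.33 (adjusted p = 0.318) on 23 to 39 counts a library. The fatty acid receptor gene Ppard had 0.08 and 0.21 (adjusted p = 0.501 and 0.0707), and passed with library totals at 0.27 and 0.53. Ppara was too low to test, with 6 counts or fewer in every library.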

How the data were processed

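Total RNA of 6 libraries was sequenced, per the labels' protocols after TRIzol extraction and library preparation by a provider. The submitters' processing notes name HISAT, StringTie, Bowtie, RSEM, DESeq2 and mm10; strandedness and read length are not given in the sources used here. Per the file headers the authors deposited estimated counts, FPKM and TPM for 57920 transcripts in each library. FPKM and TPM as deposited correct for length and depth, and TPM sums to 999999 to 1000000 a library. A further 9 columns of group means were not used.

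Estimated counts were summed per gene (17558, of which 17445 matched a RefSeq symbol; the other 113 held at most 0.148% of counts) and rounded. Genes were tested with edgeR 4.0.16 in R 4.3.3 by the quasi-likelihood test, with TMM scaling, filterByExpr (minimum count 10, total 15), all 6 libraries in 1 fit and Benjamini-Hochberg adjustment over 12643 genes. Calls have an adjusted p under 0.05. Intervals come from the fit. An exact permutation test of 2 against 2 libraries cannot go below p = 0.333, so none was run. Alternatives used DESeq2 1.42.0 and limma 3.58.1 on log2(FPKM + 1) or log2(FPKM + 0.1), other scalings and filters, and left-out libraries. The limma fits took FPKM as deposited, without TMM scaling. On simulated data for ShPkm1 against shScr (12245 genes), 92 of 100 genes changed by 1 on the log2 scale and 39 of 100 changed by 0.5 were called, with 5 of 12045 unchanged genes. Only 200 genes were changed there, means came from shScr, and every gene had the same dispersion (spread between libraries) of 0.01. In the data 63.1% of genes were called in that comparison, so the simulated rates need not hold for it.

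The members and lists were chosen with earlier results of these data known. Pathway genes were named as the 4 largest rises and falls per comparison among called genes averaging 50 or more counts, without overlap, beside 8 fixed regulators; for 4 members the 3 nearest of the genes with that mean count were named, by Euclidean distance of log2 CPM (prior count 2). Fold changes of low genes in limma are on the log2(FPKM + pseudocount) scale, which understates them.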

Additional observations from a re-analysis of the deposited data

Results flagged for a closer look

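With TMM scaling none of the 10 genes was called in opposite directions in the comparisons with shScr. Hadh was with library totals alone, lower in ShPkm1 (-0.26, adjusted p = 0.0388) and higher in ShPkm2 (0.34, adjusted p = 0.00893), and likewise with limma at both pseudocounts, which also lacks TMM scaling. Of the 86 further fatty acid genes tested, 10 were called in opposite directions with TMM scaling (11.6%), beside 592 of all 12643 genes (4.68%). They were picked for those opposite calls, so their ShPkm2 against ShPkm1 difference, given here from edgeR, largely follows from the choice and is no separate support. Vldlr differed by -5.92 on the log2 scale (adjusted p = 3.94e-10), Acacb by -3.46 (adjusted p = 1.60e-06), the monoacylglycerol lipase gene Mgll by -2.99 (adjusted p = 2.20e-07) and the lipolysis inhibitor gene G0s2 by -2.48 (adjusted p = 4.73e-10). Mgll had 1.81 in ShPkm1 and -1.19 in ShPkm2, and G0s2 had 1.26 and -1.22. The carnitine transporter gene Slc22a21 differed by -1.25, the hormone-sensitive lipase gene Lipe by -1.14, the receptor gene Rxra by -0.77 and the acyl-CoA binding protein gene Dbi by -0.74. Plin2, a lipid droplet coat gene, and Slc27a1, a fatty acid transporter gene, each differed by 1.03, being lower in ShPkm1 (-0.50 and -0.63) and higher in ShPkm2 (0.53 and 0.40). With library totals alone the ShPkm2 values of Dbi (-0.01), Rxra (-0.20), Lipe (-0.22) and Slc22a21 (-0.23) and the ShPkm1 values of Plin2 (-0.32) and Slc27a1 (-0.45) no longer passed. Without the first shScr library Slc27a1 in ShPkm2 came to 0.10 (adjusted p = 0.450), and without the second it came to -0.24 in ShPkm1 (adjusted p = 0.0820).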

How the results depend on the processing

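The number of the 10 genes called ranged from 5 to 7 in ShPkm1 against shScr, 5 to 8 in ShPkm2 against shScr and 4 to 7 in the direct comparison over every alternative. The filter on a mean of at least 50 counts left Cd36 and Cpt1b untested, and gave 5 in both comparisons with shScr. Values that changed sign were all of genes not called in that comparison. In ShPkm1 against shScr, Hadha came to 0.16 with library totals and with limma at either pseudocount, and ranged from -0.07 to 0.01 when 1 library was left out. In ShPkm2 against shScr, Cpt1c came to 0.19 with library totals, 0.19 with limma at a pseudocount of 1 and 0.23 at 0.1, and Cpt2 to 0.21, 0.20 and 0.21. With 1 library left out, Cpt1c ranged from -0.49 to 0.38 and Hadh from -0.07 to 0.10. In the direct comparison Cpt1b came to 0.00 with library totals, and Slc25a20 ranged from -0.04 to 0.35 with 1 library left out. The cause of these changes was not tested. Where a library was left out, the lone library of its group was assumed to vary like the others. That assumption is weakest where a shScr library was left out, since the shScr libraries differed more from each other (chi-square of counts per degree of freedom 31.6) than those of ShPkm1 (6.08) and ShPkm2 (6.82), so small p-values there are less certain. The same replicate number did not pair the libraries: deviations from group means correlated at -0.03, 0.04 and 0.05. A replicate block gave 7922, 8566 and 6682 genes called, against 7984, 8602 and 6703, and 7, 6 and 6 of the 10 genes; with the block Cpt1c in ShPkm1 was called at 0.48 (adjusted p = 0.0395). Depth limits Cd36 and Cpt1b, with 5 to 72 counts a library.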
